A study of Mus musculus with 12 samples.

Results

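The genes described are 10 members of the AP-1, EGR and IER families, Fos, Fosb, Jun, Junb, Jund, Atf3, Egr1, Egr2, Ier2 and Ier3, in neutrophils sorted from mouse hearts. They were chosen by gene symbol, and all 10 are among the 11911 genes of the deposited table. The libraries were 6 of the control genotype (numbered 2, 6, 7, 8, 11 and 12) and 6 of the genotype LOY (3, 4, 5, 10, 14 and 15). By the series title, LOY stands for a lost Y chromosome in hematopoietic cells. Every title names a control bone marrow transplant and every treatment label reads control, so both groups are transplanted, and they are separated by the genotype label and by the codes C and KO in the titles. Each library held RNA of 800 live cells of the left ventricle, sorted as CD45.2+Ly6G+CD64-RFP+ after enzymatic digestion of the tissue. The sources used here do not give the strain, age, time after transplant, the way the Y chromosome was lost or what the red fluorescent protein (RFP) marks. Whether the libraries come from separate mice is not stated, and p-values therefore rest on a spread between libraries that may be technical.

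AP-1 is a family of paired basic leucine zipper proteins: a FOS protein binds DNA only with a partner, most often a JUN protein, while JUN proteins also pair with each other or with ATF proteins. Most of these genes are immediate early genes, transcribed within minutes of a stimulus from factors already in the cell and without new protein synthesis, and their RNAs are short-lived. In neutrophils they respond to adhesion, cytokines and chemoattractants, and in many tissues they also respond to enzymatic digestion during cell isolation. Digestion was the same in both groups per the labels, no undigested cells were used here, and the part of handling in the levels below was not tested.

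Values are normalised reads: the reads of a gene after scaling by a single factor for its library. Listed reads per library ran from 6767108 to 12561174 and genes above 0 from 7539 to 9463. The Y-linked genes Ddx3y, Eif2s3y and Uty summed to between 1032 and 1972 normalised reads in controls and to between 0 and 59.3 in LOY libraries, 4 of which were at 0. The 12 neutrophil markers summed to between 335961 and 942427 in control libraries (median 637548) and between 335042 and 721293 in LOY libraries (median 532894). All 12 cardiomyocyte markers had a higher mean log2 level in LOY libraries, with 0 called by limma and 4 at an unadjusted p below 0.05, which 4.37% of all tested genes had. Of tested markers, 8 of 10 endothelial (3 at an unadjusted p below 0.05) and 7 of 7 fibroblast genes (1) were also higher, with median log2 fold changes of 1.16 and 1.42. Lower in LOY libraries were 6 of 7 B cell, 7 of 9 macrophage, 8 of 12 neutrophil and 4 of 5 red cell and platelet markers, with 0 called and 0 at an unadjusted p below 0.05 by limma. The cardiomyocyte sum ran from 4767 to 7849 in control libraries and from 4499 to 61505 in LOY libraries. The 12 endothelial markers summed to 1283 to 5325 and to 3728 to 6561, the 10 fibroblast markers to 3652 to 10679 and to 5925 to 16818, and the 11 macrophage markers to 7372 to 10694 and to 4102 to 13812. The 8 B cell markers summed to 3263 to 12353 and to 2996 to 8887, and the 7 red cell and platelet markers listed to 13.6 to 9765 and to 165 to 7385, while of 8 T and NK cell markers only 2 were listed, with sums up to 658. Of the defining genes, Pecam1, Cdh5 and Kdr of endothelium were at 0 in 0, 1 and 4 libraries, Col1a1, Col1a2 and Col3a1 of fibroblasts in 3, 1 and 5, Cd79a and Cd79b of B cells in 1 and 3, and Hbb-bs, Hbb-bt and Hba-a1 of red cells in 2, 3 and 1. The T and NK cell genes Cd3d and Nkg7 were at 0 in 8 and 6 libraries. The first 3 cardiomyocyte markers (Myh6, Ttn, Actc1) and macrophage markers (Adgre1, Fcgr1, Mertk) were above 0 in all 12. In these bulk samples, fewer cells of a type and less RNA per cell cannot be told apart, and the part of other cell types in the levels below was not tested.

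Several promoter elements are known to drive immediate early genes: the CArG box bound by SRF, the cyclic AMP response element (CRE) bound by CREB and ATF proteins, and sites of AP-1 itself. RefSeq promoter sequences (GRCm38.p6), matched by symbol, were used for 8 of the 10 genes. Of the 8, only Egr2 had CArG boxes within the 250 bases searched before each start. Bases farther upstream were not searched, so boxes there would be missed. Sequences are shown for Egr2 and for Fos and Junb, which had the highest levels. Each is the 250 bases before a RefSeq start, written 5′ to 3′ on the strand of the gene, with CArG boxes, CRE cores (TGACG or CGTCA) and TATA boxes (TATAAA or TTTATA) in capitals. Fos is at chr12:85473640-85473889 on the plus strand and ends at the base before its first exon. Junb is at chr8:84978749-84978998 on the minus strand and overlaps no annotated exon. Egr2 is at chr10:67537619-67537868 on the plus strand, in an intron of longer Egr2 transcripts, and ends at the base before the first exon of a shorter one.
Fos: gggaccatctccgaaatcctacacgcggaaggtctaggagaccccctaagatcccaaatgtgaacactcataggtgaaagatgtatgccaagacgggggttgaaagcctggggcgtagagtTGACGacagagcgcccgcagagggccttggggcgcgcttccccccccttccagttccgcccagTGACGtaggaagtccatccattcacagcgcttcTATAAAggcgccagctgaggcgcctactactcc
Junb: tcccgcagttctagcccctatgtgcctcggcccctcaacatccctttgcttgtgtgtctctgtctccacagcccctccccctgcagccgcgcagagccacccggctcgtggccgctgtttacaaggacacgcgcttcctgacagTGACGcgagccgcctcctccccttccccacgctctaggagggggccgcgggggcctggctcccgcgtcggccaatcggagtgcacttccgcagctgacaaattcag
Egr2: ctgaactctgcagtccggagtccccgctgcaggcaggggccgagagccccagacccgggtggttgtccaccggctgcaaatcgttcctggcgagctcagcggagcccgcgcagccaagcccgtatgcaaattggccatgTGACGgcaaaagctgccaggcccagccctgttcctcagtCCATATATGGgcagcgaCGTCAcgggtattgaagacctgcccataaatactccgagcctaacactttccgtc
The Fos window held CRE cores at -129 to -125 and -66 to -62 from the start, and a TATA box at -33 to -28. Junb had 1 CRE core, at -106 to -102. In the Egr2 window shown, a CArG box lay at -72 to -63 between CRE cores at -111 to -107 and -55 to -51. RefSeq gives Egr2 other starts, and the window at chr10:67537316-67537565 held a different CArG box, also at -72 to -63, and no CRE core.

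Motifs were searched on both strands in all RefSeq windows of that length, and a gene counted if any of its starts held a match. CRE cores were in 5 of the 8 genes (Fos, Fosb, Junb, Atf3 and Egr2), against 19.8% of 27025 genes. GC boxes (GGGCGG or CCGCCC), bound by SP1, were in 6 of 8 against 35.4%, and CCAAT boxes (CCAAT or ATTGG), bound by NF-Y, in 4 of 8 against 37.5%. CArG boxes were in 1 of 8 against 1.62% and TATA boxes in 1 of 8 against 14.3%. Egr1 and Ier2 were not among the 8. For the 10 genes, windows on chromosome 18, where Egr1 lies, were left out by choice. The 27025 genes included those on that chromosome. The full CRE (TGACGTCA) was in 0 of 8 against 1.77%, and the AP-1 site (TGACTCA or TGAGTCA) in 0 of 8 against 5.16%. The window of Jund, at chr8:70697489-70697738, held none of these motifs. It does not adjoin the gene as annotated here, which starts at 70698949. A match is a description of letters and not of binding.

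All 10 genes were detected at 10 normalised reads or more in every library, as were 2456 of the 6951 genes tested. Together they took 2.61% ± 0.749 of the listed normalised reads in control libraries and 2.87% ± 0.402 in LOY libraries (SD, n = 6 each). Per kilobase of exon, Fos was highest, at 33202 ± 12399 normalised reads per kilobase, followed by Junb at 31822 ± 11322 (SD, n = 12). Fos ranked 16 and Junb 17 per kilobase among the listed genes. The length used was that of all annotated exons merged, at 2352 bases for Fos, 2301 for Junb and 6243 for Fosb. Their transcripts with the longest 3′ UTR are shorter, at 2108, 1809 and 3523 bases. The order of the genes by such lengths was not tested. The next genes were Ier3 at 7809 ± 2746, Ier2 at 6765 ± 1914 and Atf3 at 6290 ± 1644 per kilobase. Egr1 at 4092 ± 1632 and Jun at 2364 ± 965 came after them, and Jund at 887 ± 1006, Fosb at 296 ± 146 and Egr2 at 161 ± 106 per kilobase were lowest.

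Of neighbours in this order, 3 pairs were further apart than the SD of their log2 difference over libraries. Junb was above Ier3 in 12 of 12 libraries, by 2.00 ± 0.90 on the log2 scale per kilobase. Egr1 was above Jun in 11 of 12 libraries, by 0.80 ± 0.59, and Jun above Jund in 11 of 12, by 2.28 ± 1.84. Junb, Jun and Jund each share exon bases with a gene on the opposite strand, which leaves their counts uncertain to that extent. For the other neighbours in the order, the mean difference was within that SD, a rule that does not test for a difference. Among them, Atf3 was above Egr1 in 10 of 12 libraries, by 0.71 ± 0.90. Fos was above Junb in only 4 of 12 libraries although its mean was higher.

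**Figure D1:**
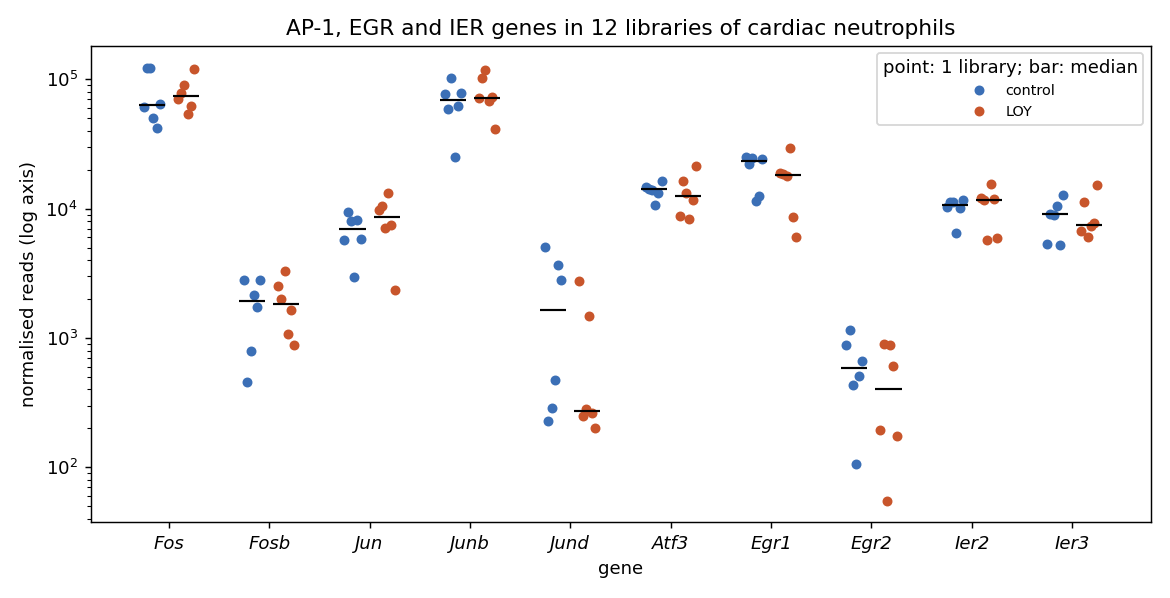
Normalised reads of each of the 10 genes (log axis) in the 6 control and 6 LOY libraries. Each point is a library and each bar the group median. The 2 groups overlap for every gene, and Jund and Egr2 spread most.

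The comparison of genotypes asks whether Y loss in hematopoietic cells goes with another immediate early program in cardiac neutrophils. None of the 10 genes was called by limma at an adjusted p below 0.05, where 0.0288% of all 6951 genes tested were (2 genes, or 0.0144% higher and 0.0144% lower). None had an unadjusted p below 0.05, where 4.37% of tested genes did, and for none did the libraries of the groups fail to overlap, where 0.201% did. On the log2 scale, LOY means were higher for Fos, Fosb, Jun, Junb and Ier3 and lower for Jund, Atf3, Egr1, Egr2 and Ier2. For Ier2 the mean of the normalised reads was instead higher in LOY libraries (10432 ± 3877 against 10160 ± 1898, SD, n = 6 each). The median log2 fold change of the 10 was 0.011, beside 0.0081 over all genes tested (3500 higher and 3451 lower). The 95% interval lay within 1 log2 unit of 0, a 2-fold change either way, for Fos, Junb, Atf3, Ier2 and Ier3, 5 of 10, where 5.68% of tested genes had so narrow an interval. For the other 5 a 2-fold change was inside the interval. DESeq2 on the recovered reads called 3.12% of 9723 genes and none of the 10, edgeR called 0 of 7054 genes (1.83% at an unadjusted p below 0.05), and none of the 10 had an unadjusted p below 0.05 in either, where 10.1% of genes did by DESeq2. The 2 genes called by limma became 0 without control 7, 8 or 12 or LOY 3, 4, 5, 14 or 15, 1 without control 2 and 3 or 4 without control 6 or 11.

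**Figure D2:**
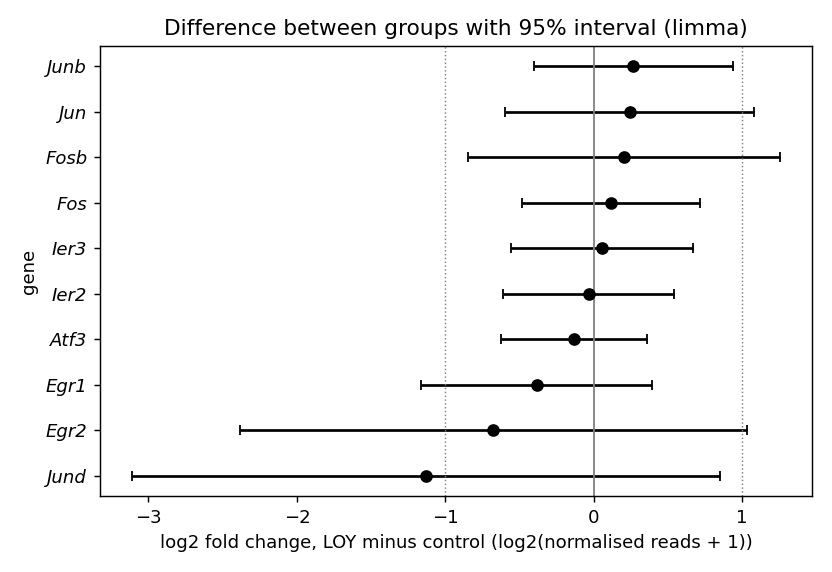
Difference of LOY and control means of log2(normalised reads + 1) for each of the 10 genes, with the 95% interval of limma over 12 libraries. Dotted lines stand at 1 log2 unit either way. Every interval holds 0, and those of Jund and Egr2 are widest.

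Fos (ENSMUSG00000021250, chromosome 12, 85473890 to 85477273, plus strand of GRCm38) encodes the FOS protein of the AP-1 dimer. In control libraries it ran from 41729 to 123053 normalised reads with a median of 62924, and in LOY libraries from 54227 to 120616 with a median of 73990. The groups overlapped throughout, with control 6, control 7 and LOY 15 highest and control 11 lowest. LOY libraries differed from control by a log2 fold change of 0.12 ± 0.28 (SE; limma adjusted p = 0.999), which was -0.034 without control 11 and -0.014 without LOY 15.

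Fosb (ENSMUSG00000003545, chromosome 7, 19302696 to 19310051, minus strand) encodes another FOS protein with a longer-lived splice form. Its control libraries ran from 460 to 2814 normalised reads (median 1947) and its LOY libraries from 878 to 3269 (median 1824). Control 6 was lowest and LOY 5 highest. Its log2 fold change of 0.20 ± 0.49 (SE; limma adjusted p = 0.999) was -0.13 without control 6. The ratio of Fos to Fosb reads ran from 21.9 to 267 over the 12 libraries, with a median of 32.7.

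Jun (ENSMUSG00000052684, chromosome 4, 95049034 to 95052222, minus strand) encodes the JUN protein that is activated by JNK kinases. It ran from 2953 to 9483 normalised reads in control libraries (median 6917) and from 2352 to 13221 in LOY libraries (median 8576). The lowest libraries were control 8 and LOY 15, and LOY 10 was highest. For Jun the log2 fold change was 0.24 ± 0.39 (SE; limma adjusted p = 0.999), 0.024 without control 8 and 0.57 without LOY 15. Jun shares 232 exon bases with the antisense gene Junos, and without strand their reads cannot be told apart.

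Junb (ENSMUSG00000052837, chromosome 8, 84974484 to 84978718, minus strand) encodes a JUN protein that can restrain JUN and that shapes myeloid cell growth. It ran from 25258 to 102493 normalised reads in control libraries (median 69680) and from 41485 to 118464 in LOY libraries (median 71840). Control 8 was again lowest, and LOY 5 was highest. Its log2 fold change was 0.27 ± 0.31 (SE; limma adjusted p = 0.999) and 0.0077 without control 8. Junb shares 173 exon bases with Prdx2 on the opposite strand, so its count is uncertain to that extent.

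Jund (ENSMUSG00000071076, chromosome 8, 70698949 to 70700616, plus strand) encodes the JUN protein that most cells keep at rest. It had the widest range of the 10: the highest library was 25.2 times the lowest. Control libraries 2, 11 and 12 had 5033, 3692 and 2829 normalised reads, while control 6, 7 and 8 had 228, 287 and 476. Of the LOY libraries, 3 and 10 had 2738 and 1481, while 4, 5, 14 and 15 had 248, 284, 262 and 200. High and low libraries thus occurred in both groups, and no library lay between 476 and 1481. Between genotypes the log2 fold change was -1.13 ± 0.92 (SE; 95% interval -3.11 to 0.85; limma adjusted p = 0.997), the largest of the 10, and the exact two-sided permutation p over 924 assignments was 0.266. The authors' deposited table gives Jund a log2 fold change of -1.27 with an adjusted p of 0.857. Its SD within groups was 1.81 on the log2 scale, above that of 93.9% of the 2456 genes at 10 or more in every library. Its transcript is 67.1% G and C, a share above that of 99.9% of tested genes. The next highest of the 10 were Junb at 62.6% and Ier2 at 60.9%, with SDs within groups of 0.62 and 0.48. The part of base composition in the levels of Jund was not tested. Jund shares 877 exon bases with the antisense gene Gm11175, which is not among the listed genes. Without strand, reads over these bases may have been added to the count of Jund or lost from it. Its count and its level per kilobase are uncertain to that extent.

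Atf3 (ENSMUSG00000026628, chromosome 1, 191170296 to 191218039, minus strand) encodes a stress-induced AP-1 partner that limits inflammatory transcription in myeloid cells. It was the steadiest of the 10, with a highest library 2.57 times the lowest and an SD within groups of 0.39 on the log2 scale, above that of only 2.93% of the 2456 genes. Control libraries ran from 10657 to 16298 normalised reads (median 14074) and LOY libraries from 8260 to 21225 (median 12433). The LOY libraries spread wider on both sides, with LOY 10 lowest and LOY 15 highest. The log2 fold change was -0.13 ± 0.23 (SE; limma adjusted p = 0.999).

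Egr1 (ENSMUSG00000038418, chromosome 18, 34859823 to 34864984, plus strand) encodes a zinc finger factor induced through MAP kinases and SRF. It ran from 11548 to 25237 normalised reads in control libraries (median 23201) and from 6005 to 29560 in LOY libraries (median 18262). Libraries LOY 15 and LOY 14 were lowest and LOY 10 highest. For Egr1 the log2 fold change was -0.38 ± 0.36 (SE; limma adjusted p = 0.997), -0.13 without LOY 15 and -0.59 without LOY 10.

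Egr2 (ENSMUSG00000037868, chromosome 10, 67535475 to 67542188, plus strand) encodes a related zinc finger factor, known in lymphocytes and macrophages. Control libraries ran from 106 to 1145 normalised reads (median 585) and LOY libraries from 55.4 to 899 (median 401). The lowest were LOY 5 and control 8. The log2 fold change was -0.68 ± 0.80 (SE; limma adjusted p = 0.999), and the ratio of Egr1 to Egr2 reads ran from 14.2 to 325 over the libraries.

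Ier2 (ENSMUSG00000053560, chromosome 8, 84661331 to 84662852, minus strand) encodes a nuclear immediate early protein. It ran from 6506 to 11649 normalised reads in control libraries (median 10730) and from 5677 to 15544 in LOY libraries (median 11716). Control 8, LOY 5 and LOY 15 stood low and the other 9 libraries between 10074 and 15544. The log2 fold change was -0.033 ± 0.27 (SE; limma adjusted p = 0.9995), and its sign turned under several settings (0.018 by edgeR).

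Ier3 (ENSMUSG00000003541, chromosome 17, 35821684 to 35822923, plus strand) encodes a short-lived protein that modulates cell death. Its control libraries ran from 5205 to 12671 normalised reads (median 9020) and its LOY libraries from 5988 to 15265 (median 7505). LOY 15 was highest and control 11 lowest. The log2 fold change was 0.056 ± 0.29 (SE; limma adjusted p = 0.9995), and -0.11 without LOY 15.

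In structure, the median genomic span of the 10 genes was 3810 bases, beside 19226 over tested genes. The spans ran from 1240 for Ier3 to 47744 for Atf3, which was longer than 75.5% of tested genes. The pentamer AUUUA, part of elements that mark RNAs for decay, was in the 3′ UTR of 9 of the 10 genes, all but Ier2, where 69.8% of 6159 tested genes held it. Its median density was 2.51 per kilobase of 3′ UTR, beside 1.30 over tested genes, with Fosb at 0.43. Ier3 had the densest UTR, with 5 in 613 bases, and Fos alone held the nonamer UUAUUUAUU, which 8.07% of tested genes held.

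How far the 10 genes were high or low in the same libraries differed from pair to pair. Of 45 pairs, 24 had a positive and 21 a negative Pearson r over the 12 libraries on the log2 scale, with a median of 0.06. None passed an adjusted p of 0.05 (permutation test, 100000 resamples, Benjamini-Hochberg over 45 pairs), and 6 had an unadjusted p below 0.05. The highest was Egr2 with Ier2, at r = 0.81 (permutation p = 0.00315, adjusted p = 0.117) and rho = 0.53 (permutation p = 0.0791, adjusted p = 0.505). Without the 2 libraries farthest from the median of Egr2, its r was 0.57, and without those farthest in Ier2 it was 0.65. Jun with Ier2 gave r = 0.77 (permutation p = 0.00521, adjusted p = 0.117) and rho = 0.66 (permutation p = 0.0227, adjusted p = 0.505), and r = 0.49 without the 2 libraries farthest in Jun but 0.89 without the 2 farthest in Ier2 (permutation p = 0.00202, adjusted p = 0.0909). Jun with Egr1 gave r = 0.66 (permutation p = 0.0213, adjusted p = 0.211) and rho = 0.42 (permutation p = 0.178, adjusted p = 0.577). Its r was 0.75 after centring each group (permutation p = 0.00466, adjusted p = 0.0699), 0.14 without the 2 farthest in Jun and 0.51 without the 2 farthest in Egr1. Jun with Junb gave r = 0.66 (permutation p = 0.0228, adjusted p = 0.211) and rho = 0.20 (permutation p = 0.525, adjusted p = 0.874), and r = -0.21 without the 2 farthest in Jun, so that relation rested on those libraries. The most negative pair was Fos with Jund, at r = -0.66 (permutation p = 0.0234, adjusted p = 0.211) and rho = -0.69 (permutation p = 0.0162, adjusted p = 0.505), and r = -0.58 without the 2 farthest in Fos.

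Control 8 was among the 3 lowest of the 12 libraries for 7 of the 10 genes and among the 3 highest for none. LOY 15 was also among the 3 lowest for 7, yet it was highest for Atf3 and Ier3 and lowest for Jun, Jund and Egr1. LOY 10 was highest for Jun, Egr1 and Ier2 and lowest for Atf3. Control 8 had 7176250 listed reads, and LOY 15 had 8633908. LOY 4 and LOY 14 had fewer than both, at 6767108 and 7077234. LOY 4 was among the 3 highest for 5 genes and the 3 lowest for 1, and LOY 14 for 1 and 1. The part of depth in these levels was not tested. Without both libraries, a setting chosen after the data were seen, none of the 10 genes was called and the log2 fold change was -0.11 for Fos and -0.039 for Ier3.

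**Figure D3:**
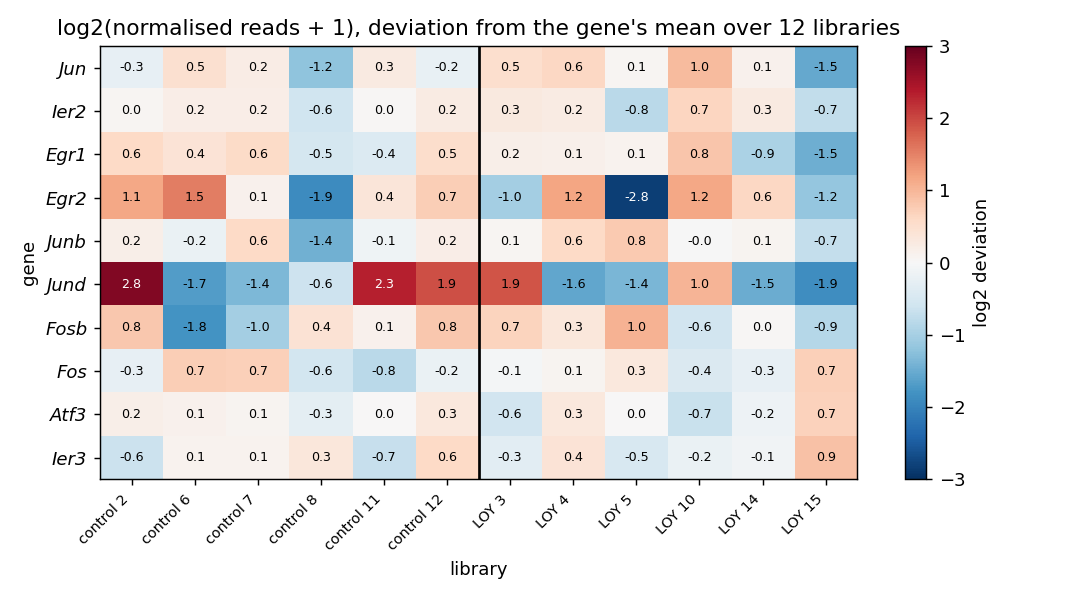
Log2 deviation of each of the 10 genes in each library from the gene's own mean over the 12 libraries, as colour and number. Jund splits into 5 libraries at 1.01 or more and 7 at -0.62 or less, and control 8 is below the mean for 8 of the 10 genes.

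The genes whose levels were most like the mean of the 10 over the 12 libraries were Dync1li1 (r = 0.92, rho = 0.84), Atxn2l (0.91 and 0.88), Parp14 (0.91 and 0.83), BC004004 (0.85 and 0.83) and Bid (0.85 and 0.80). They were picked as the highest r of 2446 genes, and all points share library and scaling.

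Other genes of the pathway gave the same count of 0 called by limma. Of 15 tested basic leucine zipper partners (18 listed), 7 were higher and 8 lower in LOY libraries, with a median log2 fold change of -0.0029. The 3 of smallest p were Fosl1, a FOS protein, at 2.92 ± 1.88 (SE), Maf at -1.50 ± 1.15 and Creb1 at 1.41 ± 1.10. Fosl1 was above 0 in 8 of 12 libraries, with mean normalised reads of 52.9 ± 69.4 in control and 168 ± 133 in LOY libraries (SD, n = 6 each). Maf had 26.7 ± 34.2 and 8.56 ± 11.8. Of 13 tested other immediate early genes (17 listed), 7 were higher and 6 lower, with a median of 0.085. Btg1, an antiproliferative factor, had 12460 ± 6536 normalised reads in control and 7066 ± 3041 in LOY libraries (SD, n = 6 each), a log2 fold change of -0.71 ± 0.40 (SE). Klf2, a zinc finger factor of quiescent leukocytes, was at -0.89 ± 0.55 and Nab1, a corepressor of EGR proteins, at 1.34 ± 1.00.

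Upstream of the 10 genes, 9 tested SRF, ternary complex and CREB coactivator genes (11 listed) split 5 higher and 4 lower, with a median of 0.45. Crtc3 and Crtc2, CREB coactivators, were at -3.12 ± 1.49 and 1.05 ± 0.96 (SE), and the acetyltransferase Ep300 at -0.70 ± 0.61. Libraries at or near 0 weigh heavily in such values: the mean normalised reads of Crtc3 were 273 ± 252 and 82.2 ± 117 (SD, n = 6 each). Of 20 tested MAP kinase cascade genes (22 listed), 6 were higher and 14 lower, with a median of -0.27. The MAP kinase kinase genes Map2k7 and Map2k2 were at -3.01 ± 1.54 and -0.88 ± 0.47 (SE). None of these had an unadjusted p below 0.05 by limma.

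Of 9 tested phosphatases and RNA-decay factors that limit the response (13 listed), 1 was higher and 8 lower, with a median of -0.37. The 1 higher gene was Zfp36, which binds AU-rich 3′ UTRs, with 32619 ± 9574 normalised reads in control and 41978 ± 12018 in LOY libraries (SD, n = 6 each) and a log2 fold change of 0.36 ± 0.23 (SE). Dusp16 and Dusp6, MAP kinase phosphatases, were at -3.22 ± 1.58 and -1.48 ± 1.08 (SE). Dusp16 had mean normalised reads of 230 ± 176 in control and 92.4 ± 123 in LOY libraries (SD, n = 6 each), and 0 in its lowest LOY library. Dusp6 had 1070 ± 189 and 860 ± 676 (SD, n = 6 each), and 5.93 in its lowest LOY library. Of 17 tested known AP-1 or EGR1 targets (21 listed), 8 were higher and 9 lower, with a median of -0.064. Cd69 was at -1.67 ± 1.30, the urokinase receptor gene Plaur at 0.52 ± 0.46 and the chemokine gene Ccl3 at 0.43 ± 0.39 (SE).

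Of 10 tested heat shock genes (11 listed), which handling of tissue can also induce, 8 were higher and 2 lower in LOY libraries, with a median of 0.75 and 0 called. Hspb1 was the only one at an unadjusted p below 0.05, with a log2 fold change of 3.32 ± 1.39 (SE; limma adjusted p = 0.997). Its mean normalised reads were 83.4 ± 93.1 in control and 251 ± 149 in LOY libraries (SD, n = 6 each). Its lowest control library had 0.73. Hsp90aa1 and Dnajb1 were at 0.79 ± 0.45 and 0.69 ± 0.39 (SE). The AP-1, EGR and IER genes had a median of 0.011. Cardiomyocyte markers and most tested endothelial markers were also higher in LOY libraries. The parts of handling and of other cell types in the heat shock values were not tested.

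**Figure D4:**
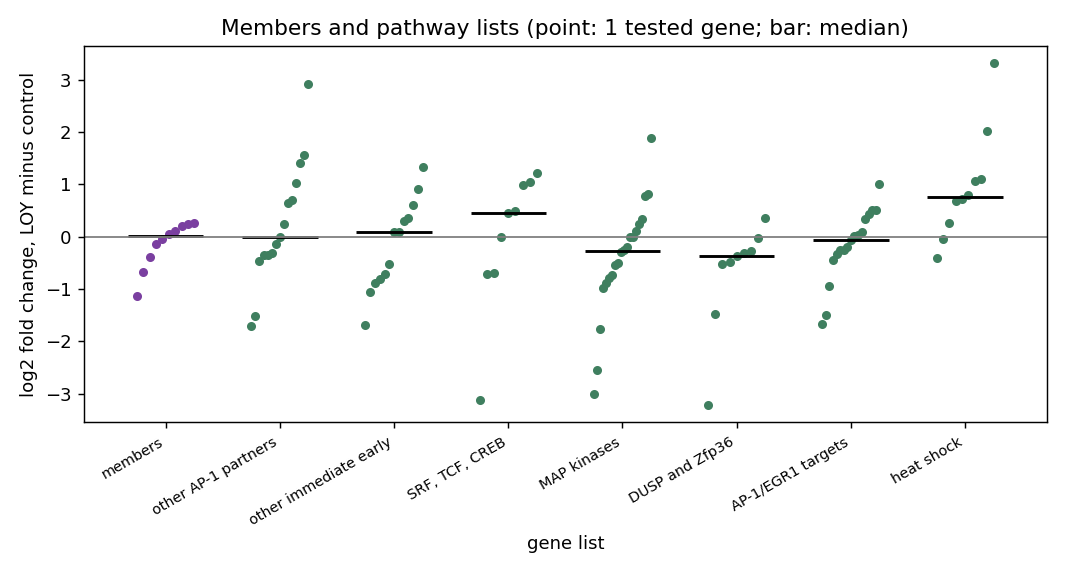
Log2 fold change of LOY over control for each tested gene of the 10 described genes and of 7 pathway lists. Each point is a gene and each bar a list's median, which runs from -0.37 for phosphatases and RNA-decay factors to 0.75 for heat shock genes.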

How the data were processed

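RNA of 12 libraries was amplified with the SMART-Seq v4 kit and sequenced from Nextera XT libraries, per the labels' protocols, which carry neither strand nor molecular identifiers. The submitters' processing notes name STAR 2.5.2b, Trimmomatic 0.36, bcl2fastq 2.17 and featureCounts (Subread 1.5.2), and the builds mm10 and GRCm38. The deposited signal columns hold read counts after division by a library factor by the authors; 100% of values were whole reads within 0.01, which gave the counts back. The deposited table also holds the authors' log2 fold change and p-value columns. The sources used here do not name the authors' scaling tool; DESeq2's size factors on the recovered reads differed from the authors' factors by rounding only. Symbols turned into dates (17 genes) or blank (8) were taken from GENCODE M21 (GRCm38), which matched 11892 identifiers and gave coordinates, exon lengths and UTRs. The depth, 6767108 to 12561174 listed reads, includes PCR copies, so it does not give the number of RNA molecules sampled. Precision is therefore not limited by the counting error of reads alone.

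Groups were compared with limma 3.58.1 (trend, robust empirical Bayes) on log2(normalised reads + 1), LOY minus control, for genes of at least 10 in at least 6 libraries (6951), with Benjamini-Hochberg adjustment at 0.05. On this scale a pseudocount shrinks changes of genes low in both groups, while single libraries near 0 can enlarge a change beyond that of the mean reads. Each gene also had an exact two-sided permutation test. Alternatives were DESeq2 1.42.0, edgeR 4.0.16 (quasi-likelihood, TMM), pseudocounts of 0.5 and 5, no filter, quantile normalization and each library left out. The text names all 10 genes, the 5 most like their mean (Pearson r, among genes of at least 10 in every library) and the 3 tested genes of smallest p of each pathway list; Jund's neighbours and other genes named beside these were chosen after their values were seen. The genes and lists were chosen with earlier results of these data known. The fit was tested on simulated data. Some genes that these rules name are not reported here.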

Additional observations from a re-analysis of the deposited data

Results flagged for a closer look

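Ier2 in control 8 stood apart from the other control libraries. Its value was 6506 normalised reads, while the other 5 control libraries lay between 10074 and 11649. The gap to the nearest library was 0.694 of the group's range, above Dixon's 95% critical value of 0.625 for 6 libraries. Of 20 groups checked, 1 met this rule, and chance flags about 1 in 20.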

How the results depend on the processing

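None of the 10 genes passed the threshold in any of the 200 alternative values. The smallest adjusted p was 0.857 and the smallest exact permutation p was 0.266. Signs turned in 17 of these values, all for Fos, Fosb, Ier2 and Ier3, and the cause was not tested. Ier2 was 0.038 by DESeq2, 0.018 by edgeR and 0.051 after quantile normalization. Without control 8 and LOY 15, chosen after seeing the data, Fos was -0.11 and Ier3 -0.039. With each library left out, Fos ran from -0.034 to 0.28, Fosb from -0.13 to 0.40, Ier2 from -0.17 to 0.12 and Ier3 from -0.11 to 0.18. The others kept their sign: Jun ran from 0.024 to 0.57, Junb from 0.0077 to 0.44, Jund from -1.62 to -0.69, Atf3 from -0.28 to -0.013, Egr1 from -0.59 to -0.13 and Egr2 from -1.12 to -0.18. Over all genes, 303 passed by DESeq2, 0 by edgeR, 0 with no filter, 0 without control 8 and LOY 15, and 0 to 4 with a library left out, beside 2 in the limma fit. No paired analysis was possible because the groups share no replicate number.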

Other observations

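Some other genes of the immediate early response were also high in these neutrophils, and are given as values chosen after they were seen. Dusp1, a MAP kinase phosphatase, had 85059 ± 34820 normalised reads in control and 72289 ± 36304 in LOY libraries (SD, n = 6 each). Btg2, an antiproliferative gene, had 49195 ± 11417 and 51314 ± 7176, and the nuclear receptor gene Nr4a1 had 17969 ± 11057 and 22722 ± 11592. Klf6, a zinc finger factor, had 10525 ± 3078 and 10815 ± 813. None of the 4 was called by limma, with log2 fold changes of -0.31, 0.085, 0.36 and 0.087.

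Some genes outside the AP-1 family had levels that followed those of Jund. Among 2446 genes, the 5 most like it over the 12 libraries were led by Pnrc1, a nuclear receptor coactivator (r = 0.93, rho = 0.89). The others were Gm23935 (0.92 and 0.77), Gm24270 (0.91 and 0.71), Btg1 (0.91 and 0.82) and the kinase gene Pim1 (0.91 and 0.90). Egr1 was most like Dusp1 (0.82 and 0.71). The genes most unlike Junb were led by ribosomal protein genes, Rps19 at r = -0.92, Rpl23 at -0.89, Rps29 at -0.89 and Rps18 at -0.88. These are picked as the extremes of many genes, share library and scaling, and carry no test.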
